A study of Mus musculus with 8 samples.

Results

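The miR-181 family is a group of microRNAs (miRNAs) made from 6 hairpins at 3 places in the mouse genome. Its rows were chosen by name: every row of the deposited table for mmu-miR-181a, mmu-miR-181b, mmu-miR-181c or mmu-miR-181d (mmu for mouse, left out below), of either arm of the hairpin, was taken. This gave 10 of the 1099 mature miRNAs listed, 4 from 5p arms and 6 from 3p arms. The family was picked because its members had differed in opposite directions between day 4 and day 0 in an earlier look at these libraries. Its levels over days are therefore a description with no test, and only the comparison of doxycycline (Dox) with no Dox was tested.

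Small RNA libraries came from KH2-DGCR8 cells during embryoid body (EB) differentiation. KH2 cells are mouse embryonic stem cells made to carry a Dox-inducible transgene, and DGCR8 is the RNA-binding subunit of the Microprocessor, in which the nuclease DROSHA cuts miRNA hairpins out of primary transcripts. All groups carry the KH2-DGCR8 genotype: 4 libraries were made with Dox and 4 without, at days 0, 1, 2 and 4, with 1 library per condition and no replicate of any condition. Small RNA reads do not cover DGCR8 messenger RNA, so the induction was not analysed here, and for how long Dox was given was not stated in the labels used. Values are the deposited whole numbers, taken to be RPM, since they sum to between 999965 and 1000047 in each library. The low values fitted between 362483 and 541342 whole reads per library, so that 3 reads, taken here as the floor of detection, corresponded to between 5.54 and 8.28 RPM.

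A miRNA guides its silencing complex to messenger RNAs that pair with its seed, bases 2 to 8 from the 5′ end. miRNAs that share a seed share most of their predicted targets. miR-181a is best known from lymphocyte development, where it tunes T cell receptor signalling. The family is also known from blood, endothelial and muscle differentiation.

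The mature sequences, from RefSeq on GRCm38.p6, are shown with the seed in capitals, first for the 5p arms, because they share 1 seed and differ only behind it.
miR-181a-5p: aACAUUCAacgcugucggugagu
miR-181b-5p: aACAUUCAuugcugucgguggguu
miR-181c-5p: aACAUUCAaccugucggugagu
miR-181d-5p: aACAUUCAuuguugucggugggu
The 3p arms that tell the hairpins of miR-181a and miR-181c apart are these.
miR-181a-1-3p: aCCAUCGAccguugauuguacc
miR-181a-2-3p: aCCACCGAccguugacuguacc
miR-181c-3p: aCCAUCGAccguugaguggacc
All 10 rows matched a RefSeq sequence. The 5p seed was found in 4 of the 1679 mature names in that table, all of them miR-181. Counted from 1 at the 5′ end, miR-181b-5p and miR-181d-5p differed by the substitution C12U and by 1 base at the 3′ end, which miR-181b-5p has and miR-181d-5p lacks. miR-181a-5p and miR-181c-5p differed by 1 deleted base. Between miR-181a-5p and miR-181b-5p, neighbours in the genome, there were 3 substitutions (A9U, C10U and A21G) beside the base at the 3′ end. By sequence the closest pairs were thus a with c and b with d, each pair across loci. The 3p arms miR-181a-1-3p and miR-181c-3p shared a seed and differed by U16G and U19G.

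The hairpins lie in pairs. Mir181a-1 and Mir181b-1 are on the plus strand of chromosome 1 (GRCm38, chr1:137966455-137966541 and chr1:137966639-137966718), within introns of the non-coding genes Gm4258 (same strand) and Gm26936 (opposite strand), and Mir181b-1 also overlaps an exon of the lincRNA A430106G13Rik. Mir181a-2 (chr2:38852735-38852810) and Mir181b-2 (chr2:38853830-38853918), on the plus strand, lie within Nr6a1, which encodes an orphan nuclear receptor, in introns and on the opposite strand, and Mir181b-2 also overlaps an exon of Gm44144 on that strand. Mir181c (chr8:84178873-84178961) and Mir181d (chr8:84178716-84178787) are on the minus strand, in an intron of Nanos3, a germ cell gene of the same strand. Both pairs carrying miR-181a and miR-181b give the same mature 5p sequence, so miR-181a-5p (chr1:137966468-137966490 and chr2:38852741-38852763) and miR-181b-5p (chr1:137966650-137966673 and chr2:38853845-38853868) cannot be assigned to chromosome 1 or 2. miR-181c-5p (chr8:84178924-84178945) and miR-181d-5p (chr8:84178759-84178781) each have a single place, 85 bases apart as hairpins.

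Mean levels of the 10 rows ran from 0.25 to 2767 RPM. miR-181d-5p averaged 2767 ± 1619 RPM and miR-181b-5p 2412 ± 1379 RPM over the 8 libraries (SD, n = 8, which includes the differences between days), ranks 57 and 64 of all miRNAs. miR-181c-3p and miR-181c-5p followed at 635.2 ± 381 and 610.5 ± 387 RPM, and miR-181a-5p at 55.5 ± 80.0 RPM. miR-181d-5p stood above miR-181b-5p in 8 of 8 libraries, whereas miR-181c-3p stood above miR-181c-5p in 3 and below it in 5, so the arms of miR-181c had no set order. The other 5 rows, all 3p arms, had means of 9 RPM or less. Lengths run from 21 to 24 nt, so levels per read need no correction for length.

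miR-181a-5p and miR-181c-5p, which share the seed and almost all other bases, had opposite courses. At days 0, 1, 2 and 4, miR-181a-5p stood at 11, 14, 19 and 209 RPM with Dox and at 10, 7, 17 and 157 RPM without. It stayed between 3 and 9 implied reads in the libraries of days 0 to 2 and had 113 and 57 reads at day 4, so nearly all of the difference lay between days 2 and 4. miR-181c-5p had 877, 701, 508 and 205 RPM with Dox and 1336, 725, 358 and 174 RPM without, and was lower at each later day in both treatments.

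Between day 4 and day 0, miR-181a-5p was higher by 19.1-fold with Dox (95% counting interval 7.26 to 71.3) and by 16.2-fold without (6.0 to 61.6). The wide intervals come from 4 reads in each day 0 library. Intervals of ratios are exact conditional binomial ones, from implied reads, for counting error alone. miR-181c-5p was lower at day 4 than at day 0 by 4.28-fold with Dox (3.44 to 5.36) and by 7.68-fold without (5.91 to 10.1). At day 4 the 2 rows met: miR-181a-5p was 102% of miR-181c-5p with Dox and 90.2% without, against 1.25% and 0.748% at day 0.

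**Figure D1:**
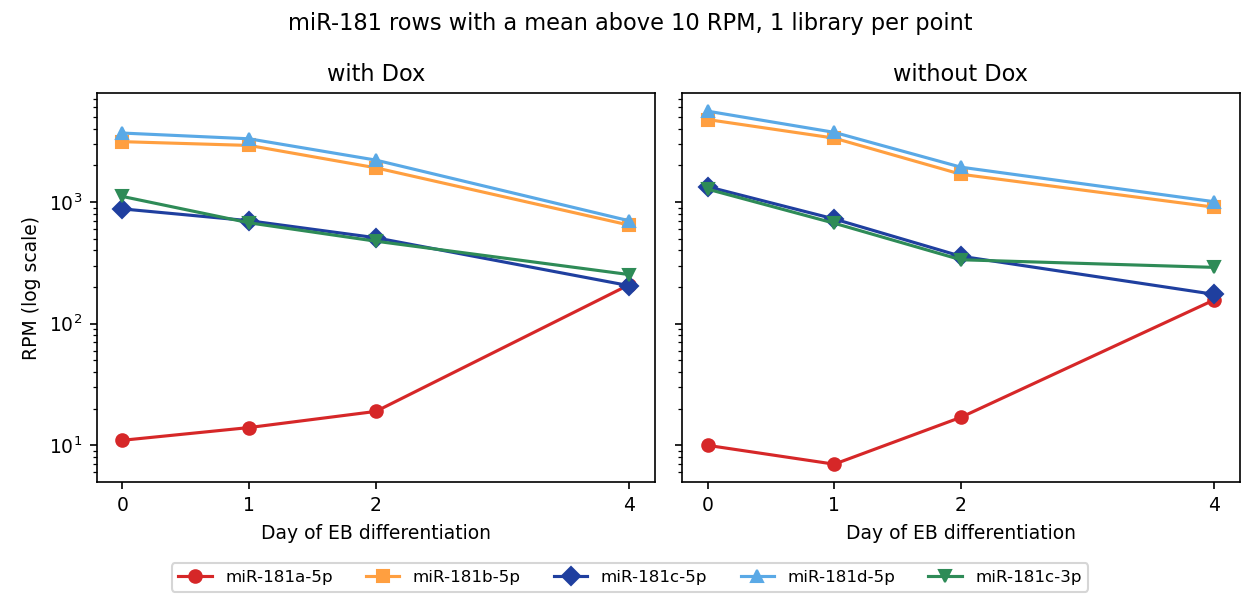
RPM on a log axis against day of EB differentiation, with Dox (left) and without (right), for the 5 miR-181 rows with a mean above 10 RPM, where each point is 1 library. miR-181a-5p stands at 209 and 157 RPM at day 4 and is highest there, the other 4 rows are lowest there, and it reaches the level of miR-181c-5p only on that day.

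The other arm of the miR-181c hairpin followed its partner. miR-181c-3p had 1110, 674, 476 and 253 RPM with Dox and 1275, 669, 335 and 290 RPM without at days 0, 1, 2 and 4, and was lower at day 4 than at day 0 by 4.38-fold and 4.40-fold. The ratio of miR-181c-3p to miR-181c-5p lay between 0.92 and 1.67 in the 8 libraries. It was 1.67 (95% counting interval 1.21 to 2.32) in the day 4 library without Dox, on 105 reads of the 3p arm and 63 of the 5p arm. The day 0 library with Dox, at 1.27 (1.09 to 1.47), was the other one whose interval lay above 1.

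As deposited, the 5p rows did not divide by locus. Among the 3p arms, given further on, those of miR-181a and miR-181c had opposite courses. The 3p arms of miR-181b and miR-181d never passed 3 reads, too few to show a course. The row of miR-181b-5p, which lies beside miR-181a in the genome, ran with miR-181d-5p of the c/d locus and not with miR-181a-5p. It had 3130, 2914, 1908 and 645 RPM with Dox and 4758, 3346, 1689 and 905 RPM without at days 0, 1, 2 and 4. miR-181d-5p had 3684, 3304, 2208 and 700 RPM with Dox and 5575, 3733, 1931 and 1004 RPM without. Both were lower on each later day in both treatments, and at day 4 miR-181d-5p was below its day 0 level by 5.26-fold with Dox and 5.55-fold without, and miR-181b-5p by 4.85-fold and 5.26-fold.

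In every library miR-181b-5p was a nearly fixed part of miR-181d-5p. The ratio was 0.850, 0.882, 0.864 and 0.921 with Dox and 0.854, 0.896, 0.875 and 0.901 without at days 0, 1, 2 and 4. The counting intervals of all 8 libraries overlap, the widest running from 0.774 to 1.05. Across the 8 libraries Pearson's r of log2(RPM + 1) was 1.00 for b with d, 0.97 for b with c and -0.94 for a with b, given as descriptions because the libraries share the same days. The sources used here do not give how reads that fit more than 1 member were counted, so the split of reads between miR-181b-5p and miR-181d-5p is uncertain. The same limit holds for miR-181a-5p and miR-181c-5p, which are closer still in sequence, although their rows had opposite courses. Rows with means closer to each other than those of b and d occurred outside the family. Their sequences were not compared here, so they do not show how reads of similar but distinct miRNAs were counted. miR-199a-3p and miR-199b-3p both averaged 192.1 RPM, and miR-199a-5p and miR-199b-5p averaged 166 and 166.2 RPM. Whether reads were counted in more than 1 row of such pairs was not tested.

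**Figure D2:**
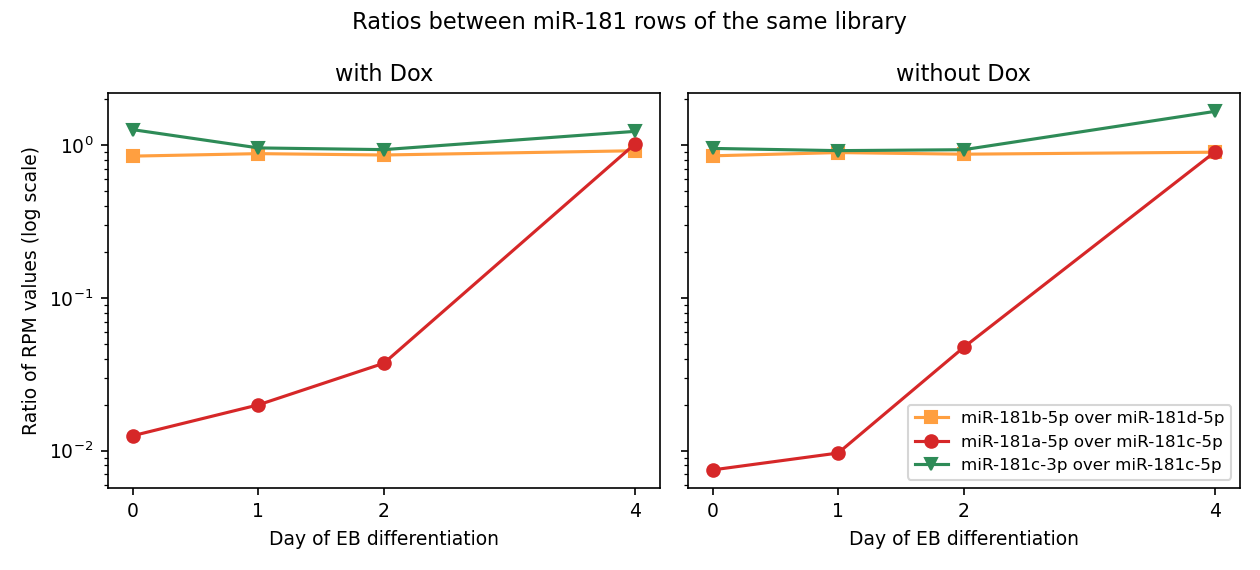
Ratio of RPM values of 2 miR-181 rows of the same library on a log axis against day, with Dox (left) and without (right), 1 library per point. miR-181b-5p over miR-181d-5p stays between 0.850 and 0.921, while miR-181a-5p over miR-181c-5p is 102% and 90.2% at day 4, and miR-181c-3p over miR-181c-5p lies between 0.92 and 1.67.

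The 3p arms of the a and b hairpins were near the floor. Those of the a hairpins are close to miR-181c-3p, with 2 substitutions for miR-181a-1-3p and 3 for miR-181a-2-3p. The limit on how reads that fit more than 1 member were counted holds for them too. miR-181a-2-3p had 0, 4, 6 and 35 RPM with Dox and 0, 4, 9 and 14 RPM without at days 0, 1, 2 and 4, that is 0, 2, 3 and 19 and 0, 2, 4 and 5 reads. miR-181a-1-3p had 0, 0, 2 and 4 RPM with Dox and 0, 0, 2 and 14 RPM without, at most 5 reads. Both were listed at 0 in the day 0 libraries and were highest at day 4, as miR-181a-5p was. With a floor of 3 reads per library at day 0, miR-181a-2-3p was at least 4.28-fold higher at day 4 with Dox and at least 1.90-fold higher without, taking the day 4 reads as exact. With counting error in both libraries, the lower 95% limit of this ratio was 3.15 with Dox and 1.04 without. For miR-181a-1-3p it was 0.127 with Dox and 1.04 without. These limits are no test, since the family was picked for its differences between these days.

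miR-181b-1-3p and miR-181b-2-3p were above 0 in 1 library alone, day 4 with Dox, at 2 and 6 RPM on 1 and 3 reads. A count of 0 allows up to between 5.79 and 8.28 RPM in the other 7 libraries. miR-181b-5p was above these levels by far in all libraries, at 645 to 4758 RPM. A low 3p arm was not special to miR-181b: miR-181d-3p had 8, 4, 2 and 0 RPM with Dox and 0, 2, 0 and 0 RPM without, at most 0.217% of miR-181d-5p.

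**Figure D3:**
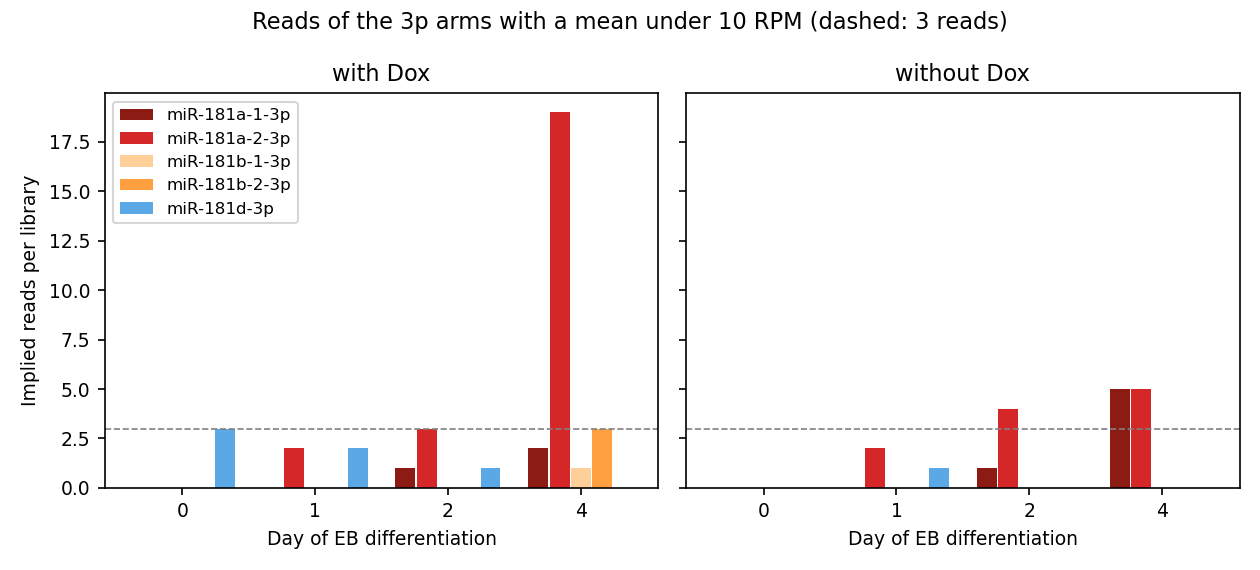
Implied reads per library of the 5 miR-181 3p arms with a mean under 10 RPM, by day, with Dox (left) and without (right), with a dashed line at 3 reads. Bars of the a hairpins are highest at day 4, led by miR-181a-2-3p with 19 reads with Dox. Those of the b hairpins appear only at day 4 with Dox, on 1 and 3 reads, and miR-181d-3p never passes 3 reads.

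Summed by locus, the contrast depended on whether miR-181b-5p and miR-181d-5p were counted. All rows of miR-181a and miR-181b gave 0.553, 0.626, 0.606 and 0.778 of the sum of all rows of miR-181c and miR-181d with Dox, and 0.583, 0.655, 0.654 and 0.743 without, at days 0, 1, 2 and 4. This ratio was thus 1.41-fold higher at day 4 than at day 0 with Dox and 1.27-fold higher without. With both left out, the a/b sum was 0.551%, 1.30%, 2.74% and 55.9% of the c/d sum with Dox and 0.383%, 0.788%, 4.04% and 39.9% without. The ratio then differed between day 4 and day 0 by 101-fold with Dox and 104-fold without, so the outcome turned on the 2 most abundant rows. At day 0 this a/b sum was miR-181a-5p alone, on 4 implied reads in each library. Both folds thus carry at least the wide counting error given above for miR-181a-5p. The 3p arms alone summed to 0, 4, 8 and 47 RPM with Dox and 0, 4, 11 and 28 RPM without for a/b, and to 1118, 678, 478 and 253 RPM with Dox and 1275, 671, 335 and 290 RPM without for c/d. On these arms the a/b sum was highest at day 4 and the c/d sum lowest, in both treatments. The 3p arms of miR-181b and miR-181d never passed 3 reads, so these sums rest mostly on miR-181a and miR-181c.

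Because the 4 5p arms share their seed, their sum is the supply of that seed. It was 7702, 6933, 4643 and 1759 RPM with Dox and 11679, 7811, 3995 and 2240 RPM without at days 0, 1, 2 and 4. A read that was counted for both b and d would enter it more than once. The sum was lower on each later day in both treatments, even though miR-181a-5p was higher at day 4. miR-181a-5p made up 0.143%, 0.202%, 0.409% and 11.9% of it with Dox and 0.0856%, 0.0896%, 0.425% and 7.01% without. miR-181b-5p and miR-181d-5p together held between 76.5% and 90.6% in all 8 libraries.

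These differences between days are relative to the other miRNAs, whose levels also moved. The median difference between day 4 and day 0 over the 839 miRNAs tested was 0.56 on the log2(RPM + 1) scale. Against that median, averaged over both treatments, miR-181a-5p was higher by 3.42, and the values for miR-181b-5p, miR-181c-5p and miR-181d-5p were -2.90, -3.07 and -3.00. Under median-of-ratios scaling, with a median of 0.01, the same 4 values against the median were 3.41, -2.94, -3.12 and -3.04. A scaling shifts all rows of a library nearly alike, and taking off the median removes that shift. These values had to be close and are no separate check.

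Marker miRNAs of cell states also differed between days, and their part in the miR-181 levels was not tested. In the miR-290 cluster, known from embryonic stem cells, 12 miRNAs summed to 402446, 391752, 370810 and 227024 RPM with Dox and 457973, 411668, 358327 and 161283 RPM without at days 0, 1, 2 and 4. The 10 fibroblast miRNAs listed in the table, of 11 sought as signs of feeder cells, summed to 20226, 27020, 34002 and 59911 RPM with Dox and 14644, 27135, 25807 and 42511 RPM without. Most of that sum was miR-21a-5p, at 14675, 19676, 27007 and 53151 RPM with Dox and 8428, 20472, 19709 and 36898 RPM without. The other 9 fibroblast miRNAs summed to 5551, 7344, 6995 and 6760 RPM with Dox and 6216, 6663, 6098 and 5613 RPM without, with no such difference between day 4 and day 0. None of these markers was at 0 in every library. A read counted for both miR-199a and miR-199b, which are among the fibroblast miRNAs, would enter their sums more than once. The 5 miR-302 and miR-367 miRNAs of epiblast-like cells summed to 301, 638, 1163 and 2151 RPM with Dox and 357, 722, 2140 and 31166 RPM without. The day 4 libraries with and without Dox thus differed in these markers. In bulk samples, fewer cells of a type and less RNA per cell cannot be told apart.

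Libraries with Dox were set against those without, over all 4 days. No miR-181 row passed the test. With limma's moderated test on log2(RPM + 1), with day as a factor and Benjamini-Hochberg adjustment over 839 miRNAs, 0 of the 8 miR-181 rows that passed the filter on low values were called. At an unadjusted p under 0.05 there were also 0, and limma-voom, from implied reads, called 0 too. Of all miRNAs tested 1.91% were called, 1.31% higher and 0.596% lower with Dox. That background of 16 calls was 8, 10 and 1 without the pair of libraries of day 0, 1 or 2, each time with no miR-181 row among them. miR-181b-1-3p and miR-181b-2-3p did not pass the filter.

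miR-181d-5p had a log2 change of -0.28 (SE 0.19, 95% interval -0.65 to 0.10, adjusted p = 0.673), and was higher with Dox on 1 of 4 days. miR-181b-5p gave -0.28 (SE 0.19, 95% interval -0.66 to 0.10). The interval of miR-181c-5p ran from -0.43 to 0.47 around 0.02, and that of miR-181c-3p from -0.41 to 0.47 around 0.03. miR-181a-5p was nominally higher with Dox on 4 of 4 days, by 0.40 (SE 0.44, 95% interval -0.47 to 1.27, adjusted p = 0.861). The fit gave weight to a miRNA's own spread for only 39 of the 839 miRNAs. The widths of these intervals come from the trend over all miRNAs, not from the spread of each row over days. For miR-181a-5p the SD of the log2 difference over the days was 0.36. The 3 low 3p arms tested had intervals between -1.97 and 2.93 and adjusted p of at least 0.586. The median change of the 8 rows was 0.03, as was that of all miRNAs tested.

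A term for treatment times day asked whether the Dox ratio changed over the days. Again 0 of 8 rows were called by limma (0 at an unadjusted p under 0.05, and 0 with limma-voom), where 0.954% of all miRNAs were, 0.238% rising and 0.715% falling. Without the day 2 pair or the day 4 pair, those 8 calls became 0. miR-181c-5p had the steepest slope among the 5 more abundant rows, at 0.20 per day on the log2 scale (SE 0.15, adjusted p = 0.666). The slopes of the other 4 lay between 0.003 and 0.02.

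On any 1 day, each treatment had a single library, so the ratios by day are values without a test. At day 0 the Dox ratio was 0.658 (95% counting interval 0.611 to 0.708) for miR-181b-5p, 0.657 (0.571 to 0.755) for miR-181c-5p, 0.661 (0.617 to 0.707) for miR-181d-5p and 0.870 (0.763 to 0.993) for miR-181c-3p, all below 1. At day 2 the same 4 rows were all above 1, at 1.13 (1.02 to 1.25), 1.42 (1.15 to 1.75), 1.14 (1.04 to 1.26) and 1.42 (1.15 to 1.77). The direction thus differed between days with intervals that exclude 1 on both. Intervals that exclude 1 were common: among 499 miRNAs averaging 10 RPM or more, 13% had one below 1 and 17.6% one above 1 at day 0, and at day 2, 25.5% had one below 1 and 17.4% one above 1.

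At day 1 miR-181b-5p and miR-181d-5p had ratios of 0.871 and 0.885, with intervals below 1, as 13.8% of miRNAs had, against 20.6% above 1. The arms of miR-181c stood at 0.967 and 1.01, with intervals that include 1. At day 4 the rows of the c/d locus differed: miR-181d-5p had a ratio of 0.697 (0.602 to 0.807), below 1 as in 29.1% of miRNAs (23.6% above 1), and miR-181c-5p one of 1.18 (0.858 to 1.63), on 63 reads without Dox. The other arm of that hairpin, miR-181c-3p, stood at 0.874 (0.673 to 1.14), with an interval that overlaps those of both. miR-181b-5p was again beside miR-181d-5p, at 0.713 (0.611 to 0.831). The ratio of miR-181a-5p was 1.13, 2.03, 1.15 and 1.33 at days 0, 1, 2 and 4, with intervals that include 1 on each day.

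**Figure D4:**
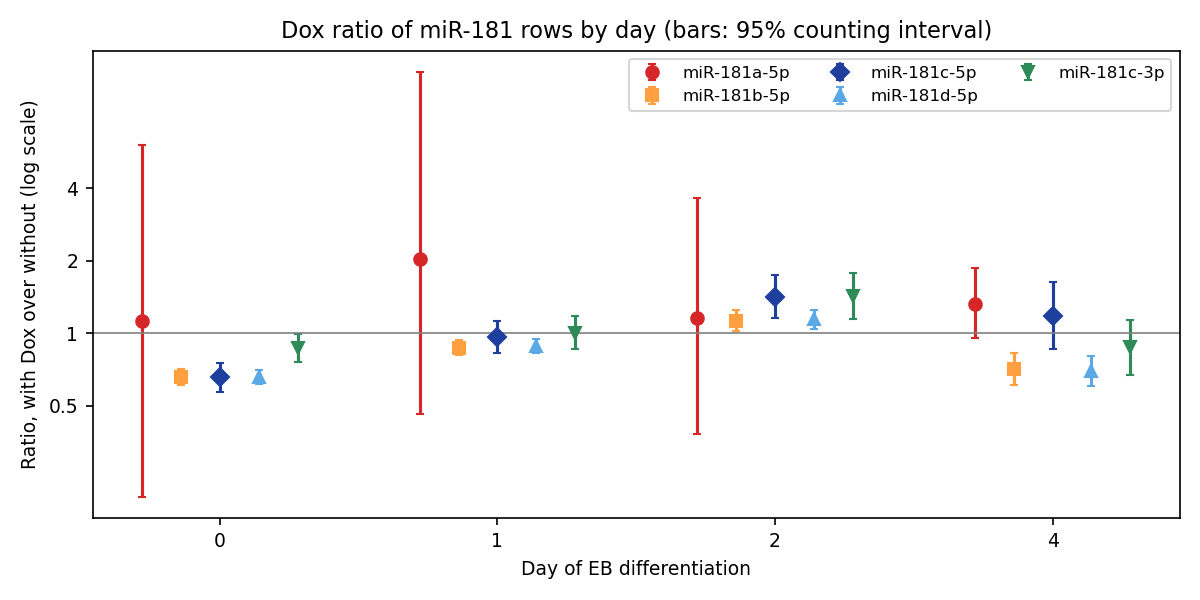
Ratio of RPM with Dox over without on a log axis, by day, for 5 miR-181 rows, where each point compares 1 library with 1 library and bars are 95% counting intervals. The 4 abundant rows lie below 1 at day 0 and above 1 at day 2, and the bars of miR-181a-5p, which rest on 3 to 9 reads before day 4, include 1 on all days.

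The ratio of miR-181d-5p to miR-181c-5p, neighbours in 1 intron, in implied reads was 4.20, 4.71, 4.34 and 3.41 with Dox and 4.17, 5.15, 5.39 and 5.78 without at days 0, 1, 2 and 4. At day 4 the counting intervals, 2.76 to 4.26 with Dox and 4.41 to 7.67 without, did not overlap. Each value is from 1 library, and the one without Dox rests on 63 reads of miR-181c-5p, where miR-181c-3p had 105. With Dox these rows had 111 and 137 reads, and miR-181d-5p had 379 with Dox and 364 without. How often other pairs of rows differ in this way was not counted. For single miRNAs, Dox intervals that exclude 1 were common at day 4, with 23.6% above 1 and 29.1% below. At days 0, 1 and 2 the intervals with and without Dox did overlap.

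The miRNAs whose course over the 8 libraries was most like that of each pole of the family were found by Pearson's r of log2(RPM + 1) among the 494 other miRNAs of that abundance (mean 10 RPM or more). For miR-181a-5p they were miR-382-3p (r = 0.97), miR-434-3p (0.96), miR-340-5p (0.94), miR-148a-3p (0.94) and miR-300-3p (0.94). Of these miR-382, miR-434 and miR-300 come from the imprinted Dlk1-Dio3 region. miR-434-3p had 1039, 1259, 1368 and 2656 RPM with Dox and 987, 834, 1611 and 3104 RPM without, a smaller range than the 7 to 209 RPM of miR-181a-5p.

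For miR-181c-5p the most alike were miR-150-5p (r = 0.98), a miRNA of mature lymphocytes, miR-292a-3p (0.96) and miR-290a-5p (0.95) of the stem cell cluster, miR-23a-3p (0.95) and miR-146b-5p (0.94). miR-150-5p had 1080, 500, 219 and 74 RPM with Dox and 1185, 794, 211 and 50 RPM without at days 0, 1, 2 and 4. All 8 libraries share the same 4 days, so any miRNA that moves steadily with day has a high r.

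**Figure D5:**
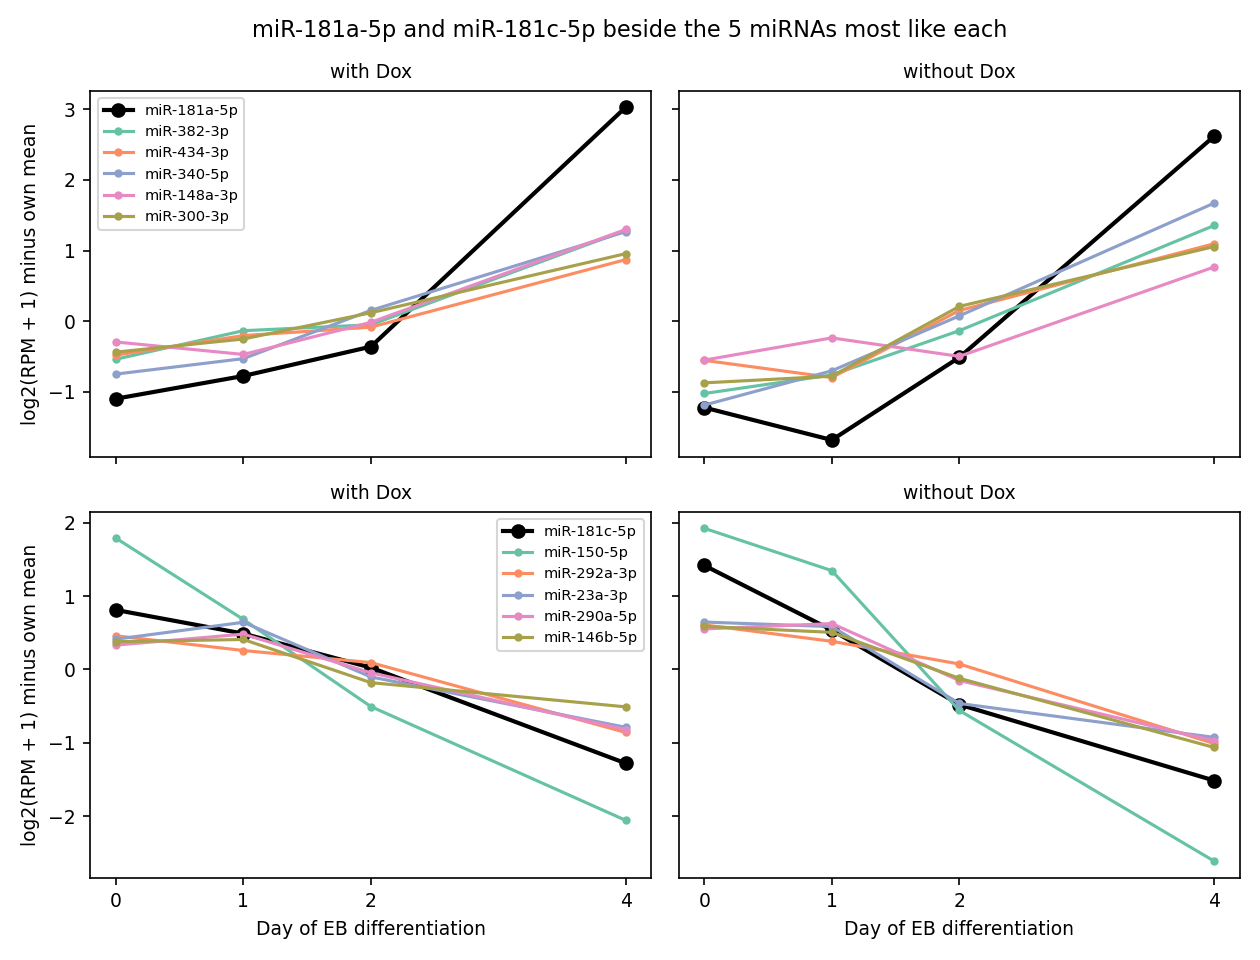
log2(RPM + 1) minus each miRNA's own mean over 8 libraries against day, with Dox (left) and without (right), for miR-181a-5p (top) and miR-181c-5p (bottom) in black and the 5 miRNAs most like each in colour. miR-181a-5p has a larger jump at day 4 than the 5 miRNAs most like it, and miR-150-5p is lower at day 4 relative to its mean than miR-181c-5p.

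miR-23a-3p lies near the c/d locus, in a hairpin 29556 bases from Mir181c on the other strand of chromosome 8. It had 1216, 1427, 851 and 528 RPM with Dox and 1430, 1370, 662 and 480 RPM without. Its neighbours differed in course. miR-27a-3p, from the next hairpin, had 8785, 7318, 6092 and 7186 RPM with Dox and 6942, 6819, 5741 and 10045 RPM without, lower at day 4 than at day 0 with Dox and higher without. miR-24-3p, which also comes from a second cluster, had 3048, 2327, 2618 and 2309 RPM with Dox and 2916, 2312, 2066 and 2083 RPM without, lower at day 4 than at day 0 in both treatments, like miR-23a-3p. For Dox, 0 of the 6 neighbours were called by limma, 0 at an unadjusted p under 0.05 and 0 by limma-voom, with a median log2 change of 0.05, against 0.03 over all miRNAs.

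Of 13 blood cell miRNAs, the setting in which miR-181a is best known, 11 were tested and 0 were called for Dox by limma (1 at an unadjusted p under 0.05, and 0 by limma-voom), with a median of -0.05. The list had no single course over days. miR-150-5p was lower on each later day, like miR-181c-5p, whereas miR-146a-5p, known from immune signalling, had 55, 58, 62 and 262 RPM with Dox and 29, 33, 112 and 188 RPM without, highest at day 4 as miR-181a-5p was. miR-126a-3p, an endothelial miRNA, had 866, 811, 919 and 1565 RPM with Dox and 844, 803, 1139 and 1040 RPM without. For Dox, limma called 0 of 10 fibroblast, 0 of 12 stem cell and 0 of 5 epiblast miRNAs, with 2, 0 and 0 at an unadjusted p under 0.05, 0 by limma-voom in each list, and medians of -0.16, 0.02 and -1.36. For the change of the Dox ratio with day, limma and limma-voom each called 4 of the 5 epiblast miRNAs, falling by limma (0 by limma without the day 2 pair or the day 4 pair), and 0 in each of the other 4 lists, where 2 neighbours, 0 blood cell, 2 fibroblast and 5 stem cell miRNAs had an unadjusted p under 0.05 and limma-voom called 0.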

How the data were processed

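The authors deposited 1 table of whole-number scores for 1099 mature miRNAs in 8 libraries, which sum to between 999965 and 1000047 in each library, as RPM rounded to whole numbers do. Per the submitters' processing notes Bowtie and genome build mm10 were used, with no version or role given; which tool counted reads, and how it treated reads that fit several miRNAs, was not stated in the sources used here. A SUM row without values was left out. Whole reads were sought as the smallest total for which every value is a rounded whole number of reads (within 0.5 RPM); 100% of values above 0 matched, though up to 207 totals did so in a library. The planned test for normalized values was used: limma 3.58.1 in R 4.3.3, log2(value + 1), a filter of at least 1 in at least 2 libraries (839 miRNAs), day as a factor, trend and robust prior, adjusted p under 0.05. The steps were tested on simulated data. Separate cultures are not mentioned in the labels, and p-values then measure only the spread between these libraries. For the miR-181 rows that spread is the trend over all miRNAs. Alternatives covered pseudocount, filter, scaling, robust option, limma-voom, day terms and left-out day pairs. Named miRNAs were all miR-181 rows, the 5 most alike miR-181a-5p and miR-181c-5p, and up to 3 of the highest in each list; members and lists were chosen with earlier results of these data known. GENCODE M21 gave the loci. Python 3.11.15 was used.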

Additional observations from a re-analysis of the deposited data

How the results depend on the processing

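Results for which an alternative moved a count or value are given here; the cause was not tested. For Dox against no Dox, 16 miRNAs were called; without the day 0, day 1 or day 2 pair there were 8, 10 and 1, without the robust option 0 (71 at an unadjusted p under 0.05, by limma), with day left out of the model 0 (25) and with day as a linear term 1. For the change with day, 8 were called; no filter gave 5, and 0 were called without the robust option (81 at an unadjusted p under 0.05, by limma), without the day 2 pair (61), without the day 4 pair (46) or with days 2 and 4 set against days 0 and 1 (38). No alternative called a miR-181 row in either test. Small uncalled changes switched sign. For Dox, miR-181c-5p was at -0.0015 under median-of-ratios scaling, -0.030 with limma-voom, and -0.14 and -0.051 without the day 2 or day 4 pair; miR-181c-3p was at -0.13 without day 2, and miR-181a-2-3p at -0.17 without day 4. Slopes without the day 0 pair were -0.15 for miR-181d-5p, -0.11 for miR-181c-3p, -0.12 for miR-181a-5p and -0.13 for miR-181b-5p; without day 2 they were -0.011 for miR-181d-5p and -0.015 for miR-181c-3p, and without day 4 -0.26 for miR-181a-2-3p. The slope of miR-181a-5p was -0.0029 with limma-voom. With days 2 and 4 set against days 0 and 1, the change of its Dox log2 ratio was -0.23.

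The difference between day 4 and day 0 kept its direction in every alternative for the 4 5p arms. For miR-181a-5p it was 3.99 on the log2 scale, 3.59 with a pseudocount of 5, 3.42 under median-of-ratios scaling and 3.50 scaled outside the miR-290 cluster. Under the last 2 scalings miR-181b-5p gave -2.93 and -2.84 and miR-181d-5p -3.03 and -2.94, and under median-of-ratios scaling miR-181c-5p gave -3.11, against -2.34, -2.43 and -2.51 as deposited. The log2 difference of the a/b to c/d ratio was 0.42 with all rows, 6.68 without miR-181b-5p and miR-181d-5p, and 7.36 for 3p arms alone with 1 added to each sum. At day 0 the a/b sum behind 6.68 rested on 4 reads in each library. The a/b sum of 3p arms was 0 in both day 0 libraries, so 7.36 depends on the 1 RPM added, less than 1 read. Depth limited miR-181a-5p before day 4 and 5 of the 3p arms, which rested on few reads.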
